A study of Mus musculus with 13 samples.

Results

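A set of 185 array probes for 178 mouse genes was detected in embryos that had replicated their DNA and went undetected in embryos held without replication, in oocytes and in cumulus cells. The members were chosen from the detection p-value deposited beside each intensity, which is the share of negative control beads brighter than the probe. A probe entered when this value was under 0.01 on all 6 arrays of replicating embryos and 0.01 or more on the other 7 arrays. Of the 25697 probes on the array, 6860 met the first condition and 191 (2.78%) met both. Leaving out 6 probes without a gene symbol gave the 185 members, so that a limit of 200 set on the list, by brightness, was not reached. Since the absence from the 7 arrays chose the members, it is described below and was not tested. Detection followed brightness. The share of members among probes detected on all 6 arrays was 10.3% for mean intensities under 150 (64 of 622 probes) and 0.649% for intensities of 600 or more (14 of 2157).

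The study asked whether a transplanted nucleus needs DNA replication to take up an embryonic expression pattern. Embryos came from somatic cell nuclear transfer (SCNT), in which the nucleus of a cumulus cell replaces that of the oocyte, or from fertilization, and grew with (Aph+) or without (Aph-) aphidicolin, an inhibitor of replicative DNA polymerases. Fertilized Aph-, fertilized Aph+ and SCNT Aph- embryos had 3 arrays each, all from pools, and SCNT Aph+ embryos had 1. There was 1 array of B6C3F1 oocytes and there were 2 of B6C3F1 cumulus cells. The labels give no strain for the embryos and name fertilization in vitro, whereas the methods name sperm injection, C3H/HeN oocytes and C57Bl/6J sperm or cumulus nuclei. The 3 arrays of an embryo group carry the label types untimed, 96h and blastocyst, numbered here as replicates 1, 2 and 3. For the SCNT Aph+ array the title and the column header disagree, the former giving the untimed and the latter the blastocyst type. The methods give 96 hours after activation for all of them, and Aph was present from the pronuclear stage. The labels call all embryos blastocysts. By the methods the Aph+ embryos stayed at 1 cell and the Aph- embryos were taken at whatever stage they had reached. Missing replication and missing cell division therefore cannot be told apart in these arrays, nor can fewer cells of a type and less RNA per cell. Nothing in the labels says that the arrays of a group came from separate cultures, so the spread between them may be technical.

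Arrays differed in brightness. Mean intensity was 316 to 374 for fertilized Aph-, 184 to 313 for SCNT Aph-, 116 to 129 for fertilized Aph+, 89.8 for SCNT Aph+, 289 for oocytes and 145 to 465 for cumulus cells. The brightest array, cumulus replicate 2, set the membership more than any other, with 208 probes failing on it alone. Of the probes detected on all 6 Aph- arrays, 16.0% were on no fertilized Aph+ array, 29.6% were absent from the SCNT Aph+ array, 33.7% from the oocyte array and 8.16% from both cumulus arrays. The tissues matched their labels in part. Of 19 cumulus cell markers, 14 to 15 were detected on the cumulus arrays and 4 on each Aph- array, but 14 were detected on the SCNT Aph+ array, at a summed intensity over the array median of 2200 against 258 to 1480 on Aph- arrays and 7160 to 36100 in cumulus cells. Of 20 oocyte markers, 15 were detected on the oocyte array, 13 to 15 on the Aph+ arrays and 7 to 9 on the Aph- arrays. Of 11 genes of the 2-cell stage, 10 were detected on each fertilized Aph+ array and 1 on the SCNT Aph+ array. On Aph- arrays it was 6 to 8 after fertilization and 7 to 10 after SCNT. The SCNT Aph+ intensities had rank correlations of 0.7219 and 0.6918 with the authors' log2 values of the cumulus arrays. With those of the other embryo arrays they had 0.5883 to 0.6499, and with the oocyte array 0.6139. No member belonged to the cumulus or the oocyte marker list. What these differences between arrays contributed to the results was not tested.

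In the first days of development the mouse embryo uses mRNA and protein stored in the oocyte, and its own genome takes over at the 2-cell stage. By the blastocyst stage an outer epithelium, the trophectoderm, encloses a fluid-filled cavity and the inner cell mass. Trophectoderm cells are joined by tight junctions, carry keratin filaments and pump ions and solutes across the cell layer, under transcription factors such as CDX2, EOMES, GATA3 and AP-2. Inner cells express NANOG and OCT4, the product of Pou5f1.

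RefSeq promoters of the GRCm38.p6 build, which run from 250 bases before to 50 after a start site, were at hand for 142 of the 178 genes, with 204 start sites. The first listed promoters of 5 members are shown, because the results below turn on these genes. Tmprss2 and Krt7 were bright epithelial members, Dppa1 was lower in SCNT embryos, and Slc6a13 and Slc6a12 are neighbours of which the latter was higher. They are chr16:97611146-97611445 (minus strand), chr15:101412153-101412452 (plus), chr11:46629225-46629524 (minus), chr6:121300038-121300337 (plus) and chr6:121342324-121342623 (plus), in the order of the names. Capitals mark short letters that transcription factors are known to bind, searched on both strands and spelled out after the sequences.
Tmprss2: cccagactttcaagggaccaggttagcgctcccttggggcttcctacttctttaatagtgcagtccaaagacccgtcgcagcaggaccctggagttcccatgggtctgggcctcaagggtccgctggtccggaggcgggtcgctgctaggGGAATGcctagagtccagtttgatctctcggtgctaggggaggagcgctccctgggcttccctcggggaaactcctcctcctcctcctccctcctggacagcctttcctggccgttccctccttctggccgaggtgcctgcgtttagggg
Krt7: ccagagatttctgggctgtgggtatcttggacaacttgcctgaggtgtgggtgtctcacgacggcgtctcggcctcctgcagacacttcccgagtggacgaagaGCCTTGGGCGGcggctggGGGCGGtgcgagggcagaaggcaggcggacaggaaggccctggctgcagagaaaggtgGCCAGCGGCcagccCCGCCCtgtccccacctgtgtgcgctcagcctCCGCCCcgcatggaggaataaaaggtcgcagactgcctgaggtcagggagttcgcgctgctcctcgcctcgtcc
Dppa1: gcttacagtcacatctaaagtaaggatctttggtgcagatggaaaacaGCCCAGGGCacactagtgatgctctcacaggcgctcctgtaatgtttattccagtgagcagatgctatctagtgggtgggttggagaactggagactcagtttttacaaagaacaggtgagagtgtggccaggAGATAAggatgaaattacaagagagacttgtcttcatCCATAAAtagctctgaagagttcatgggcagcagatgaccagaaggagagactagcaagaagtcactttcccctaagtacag
Slc6a13: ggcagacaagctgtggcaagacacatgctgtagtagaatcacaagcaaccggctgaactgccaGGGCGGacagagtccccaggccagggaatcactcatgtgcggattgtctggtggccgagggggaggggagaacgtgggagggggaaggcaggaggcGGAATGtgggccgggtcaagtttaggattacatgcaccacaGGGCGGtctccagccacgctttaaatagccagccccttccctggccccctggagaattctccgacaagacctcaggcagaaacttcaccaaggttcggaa
Slc6a12: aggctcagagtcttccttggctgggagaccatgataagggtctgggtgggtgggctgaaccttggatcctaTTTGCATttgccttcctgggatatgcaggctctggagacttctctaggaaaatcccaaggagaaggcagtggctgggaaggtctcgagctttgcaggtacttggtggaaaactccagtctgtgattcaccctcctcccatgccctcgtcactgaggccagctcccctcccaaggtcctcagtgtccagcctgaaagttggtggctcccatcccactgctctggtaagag
The Krt7 window held 4 GC boxes, spelled GGGCGG, and 2 matches to the AP-2 letters, GCCNNNGGC, which overlap in 1 place. The Tmprss2 window held 1 match to the TEAD letters, GGAATG, and that of Slc6a13 held 1 TEAD match and 2 GC boxes. In Slc6a12 there was 1 octamer, ATGCAAA. Dppa1 had 1 AP-2 match, 1 match to the GATA letters, AGATAA, and 1 to the CDX letters, TTTATNG. The E-box, CACGTG, and the TATA box, TATAAA, had no match in the 5 windows.

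Across the set these short motifs were not rare elsewhere. The AP-2 letters occurred in 47 of the 204 promoters, in 25.6% of the 5453 promoters of other genes detected on all 6 Aph- arrays and in 16.6% of all 32851 promoters in the table. The GC box was in 51.5% of member promoters, against 65.9% and 35.7%. GATA letters were in 10.3% of member promoters against 5.72% of those of the other detected genes, and 11.2% of all. TEAD letters were in 14.7%, 11.3% and 14.7%, and CACCC (KLF), which is too common to mark above, in 68.6%, 62.5% and 57.5%. These shares are a description and no test was made.

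**Figure D1:**
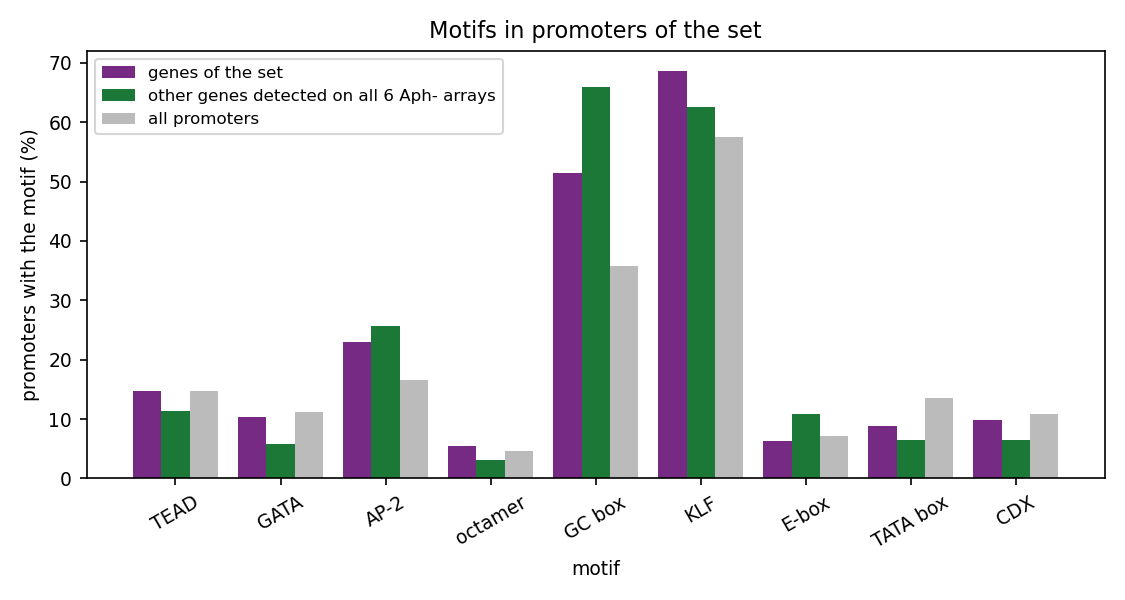
Percentage of promoters (vertical axis) that hold each of 9 motifs (horizontal axis), for genes of the set, for other genes detected on all 6 Aph- arrays and for all promoters in the table. The bars show the GC box in 51.5% of member promoters, between 35.7% of all promoters and 65.9% of those of other detected genes.

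The brightest member was Tmprss2, a serine protease of epithelial surfaces. Its intensity was 3466, 1951 and 2682 on the 3 fertilized Aph- arrays and 1722, 462 and 572 on the SCNT Aph- arrays. It was 78.3, 80.1 and 79.7 on the fertilized Aph+ arrays, 77.4 on SCNT Aph+, 96.2 in oocytes and 79.8 and 113 in cumulus cells. The latter values lie near the array medians of 73.5 to 126. The 2 kinds of Aph- embryo did not overlap, on SCNT arrays that were dimmer as a whole. After background correction and normalization, the fertilized Aph- mean was at least 26.0-fold above the lowest detected level of fertilized Aph+ arrays, and the SCNT Aph- mean was at least 14.8-fold above that of the oocyte array. Such bounds are limited by the lowest detected level of the arrays that lack the member. In log2 it was 5.67 to 6.15 on Aph+ arrays and 5.67 on the oocyte array, against 4.75 to 5.26 on Aph- arrays. Other surface proteases of the set were St14, known as matriptase, at 602 to 635 in fertilized and 246 to 711 in SCNT Aph- embryos, and Prss8, its partner prostasin, at 374 to 508 and 212 to 392. On the other 7 arrays St14 stayed at 70.9 to 110. Liph, a lipase that makes lysophosphatidic acid, was at 583 to 710 and 350 to 496.

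Among 11 transcriptional regulators, Msc, a basic helix-loop-helix repressor also called musculin, was the brightest. It reached 2197, 1441 and 2058 in fertilized and 1980, 791 and 470 in SCNT Aph- embryos, with 74.7 to 123 on the other 7 arrays. Eomes, a T-box factor that trophectoderm and its stem cells require, was at 1485, 1115 and 1072 in fertilized and 862, 244 and 279 in SCNT Aph- embryos. On the Aph+, oocyte and cumulus arrays Eomes lay between 71.7 and 111. All 3 SCNT intensities were below all 3 fertilized ones, on SCNT arrays that were dimmer as a whole. Tfap2a, an AP-2 factor, was at 474, 494 and 425 in fertilized and 297, 112 and 134 in SCNT embryos. Grhl2, a regulator of epithelial junction genes, was at 235, 238 and 274 and at 157, 110 and 168. Epas1, the hypoxia-inducible factor HIF-2 alpha, went the other way, with 477, 317 and 369 in fertilized and 648, 453 and 734 in SCNT Aph- embryos. Of the 26 trophectoderm regulators in a list of known genes, 18 were detected on all 6 Aph- arrays, and 3 of those (Eomes, Grhl2 and Tfap2a) were members. Over all genes detected on the 6 arrays the share of members was 3.35% (178 of 5315), against which this and the list counts below can be set, with no test made. Of the other 15, 12 were detected on a fertilized Aph+ array, 10 on the SCNT Aph+ array, 8 in oocytes and 6 in cumulus cells. Cdx2 was among them. It had intensities of 2060 to 8663 in Aph- embryos and 103, 87.2 and 81.1 in fertilized Aph+ embryos, of which 1 array passed detection, as did the SCNT Aph+ array at 82.8.

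**Figure D2:**
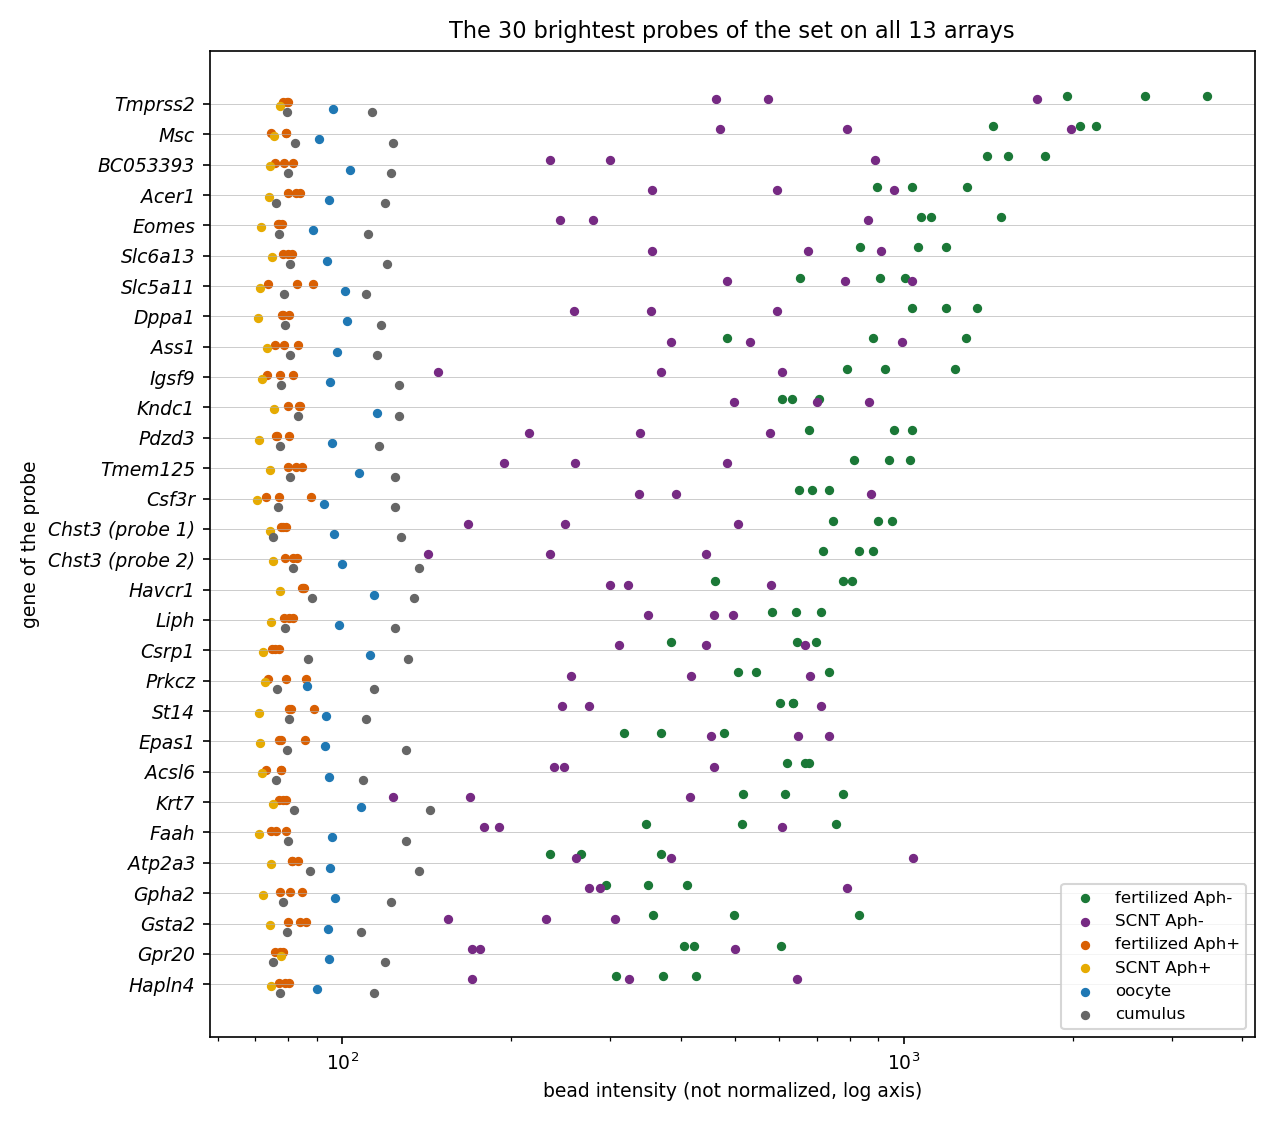
Bead intensity without normalization (horizontal axis, log scale) of the 30 brightest probes of the set (vertical axis) on all 13 arrays, 1 point per array, coloured by group. Fertilized and SCNT Aph- points lie to the right, from 1951 to 3466 and 462 to 1722 for Tmprss2, and the other 7 arrays cluster at the left.

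Genes of epithelial structure were the next group. Krt7, a simple-epithelium keratin, was at 777, 517 and 613 in fertilized and 415, 123 and 169 in SCNT Aph- embryos. Its highest value elsewhere, 143 on cumulus replicate 2, was above 1 of the SCNT values, which shows that detection is relative to each array's own background. Prkcz, an atypical protein kinase C of cell polarity, was at 507 to 734 and 255 to 679. The tight junction proteins Cldn3, Ocln and Marveld3 were dimmer, with means of 242, 138 and 140 over the 6 arrays. In all, 5 of 23 detected genes on a list of keratins and junction proteins were members, Ppl and Krt7 being the others. Among the remaining 18, Krt8 and Krt18, the main keratins of trophectoderm, were detected on all 3 and on 2 of the fertilized Aph+ arrays.

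Channels, solute carriers and pumps made up 17 of the member genes. Of 11 detected genes on a list for blastocoel formation 1, Fxyd4, was a member. Slc6a13, a carrier of GABA and taurine, was at 1059, 835 and 1188 in fertilized and 910, 356 and 674 in SCNT Aph- embryos. Slc6a12, the betaine and GABA carrier encoded beside it, was at 140, 138 and 154 and at 200, 151 and 212. On the 7 other arrays both stayed between 73.7 and 127. Slc5a11, an inositol carrier, was at 1004, 654 and 906 and at 1035, 483 and 786. Atp12a, a proton and potassium pump, was at 397, 350 and 528 and at 240, 128 and 142.

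Signals and enzymes made up part of the remaining bright members. Csf3r, the receptor of granulocyte colony-stimulating factor, was at 734, 686 and 651 in fertilized and 872, 338 and 392 in SCNT Aph- embryos. Havcr1, a phosphatidylserine receptor, was at 808, 461 and 777 and at 579, 300 and 322. Acer1, an alkaline ceramidase, was at 1035, 895 and 1296 and at 958, 356 and 593. These enzymes and receptors act at membranes. Ass1, which makes argininosuccinate in arginine synthesis, was at 880, 483 and 1290 and at 993, 384 and 531. Chst3, a sulphotransferase of chondroitin, was read by 2 member probes, at 952, 747 and 897 with 507, 167 and 249 for the brighter. Its second probe gave 882, 717 and 832 with 444, 142 and 234, so that both placed every SCNT array below every fertilized array. The SCNT arrays were dimmer as a whole, and the 2 probes share these arrays. After normalization the order held, as it did for 13.5% of other probes detected on all 6 arrays. Neither Chst3 difference passed the limma test described below (-1.09 and -1.24, adjusted p = 0.0729 and 0.0785). The other bright members, with means over the 6 arrays, were BC053393 (1020), Dppa1 (795), Igsf9 (679), Kndc1, Pdzd3, Tmem125 and Csrp1 (525).

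The set held some pluripotency genes. Of 20 genes of the inner cell mass and pluripotency list that were detected on all 6 Aph- arrays, 4 were members. Gdf3, a TGF-beta family ligand of pluripotent cells, was at 666, 434 and 347 in fertilized and 311, 190 and 204 in SCNT embryos. Zfp42, known as Rex1, was at 184, 244 and 260 and at 144, 106 and 121. In both, each SCNT intensity was below each fertilized one, but after normalization the groups overlapped for Gdf3, at log2 levels of 8.29, 7.90 and 7.12 against 7.42, 7.68 and 7.09. Utf1 had a mean of 153 and Sfmbt2, a polycomb protein imprinted in mouse, of 155. Among 36 detected genes of a DNA replication list, Tk1, the thymidine kinase of S phase, was the 1 member, and 34 of the other 35 were detected on a fertilized Aph+ array. The counts were 1 of 24 for mitosis (Ncapd2), 1 of 39 for mitochondrion and respiration (Cycs), 1 of 10 for primitive endoderm (Apoa1) and 1 of 4 for the 2-cell stage (Pramel6). They were 0 of 29 for lysosome and endocytosis, 0 of 30 for nucleolar ribosome assembly and 0 of 22 for cholesterol and lipid. In total 21 member genes belonged to 1 or more of 19 lists, and 157 to none.

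Another probe of the same gene often gave another answer. The array held 2 or more probes for 74 member genes and 1 probe for 104. In 7 genes, Chst3, Acsl6, Il17re, Fxyd4, Cbs, Btrc and S1pr5, both of a pair were members. For 70 genes there were 105 further probes. Of these, 41 were detected on none of the 13 arrays, 28 on 1 to 5 of the 6 Aph- arrays and 35 on all 6. All 35 were detected on 1 or more of the other 7 arrays, since they would otherwise be members. Thus 34 of the 70 genes were read outside replicating embryos by another probe, 26 of them in Aph+ embryos. Smpd1, the acid sphingomyelinase, had a mean of 183 by its member probe and of 9280 by a probe detected on all 13 arrays. Eif5a, a translation factor, had 125 and 2890, the brighter probe again on all 13. For Wfdc2, a secreted protease inhibitor of epithelia, the brighter probe gave 3224 to 7712 in Aph- embryos and 105, 158 and 223 in fertilized Aph+ embryos, each detected. It was also detected on the SCNT Aph+ array, at 80.3, and on 1 cumulus array. Both Tk1 and Lmnb1, which encodes lamin B1, were likewise detected in fertilized Aph+ embryos by a second probe, on 3 arrays and 1 array. These probes were also detected on the oocyte array, and that of Lmnb1 on the SCNT Aph+ and both cumulus arrays. Among bright members, Prss8 had a brighter probe (943 against 368) detected on 1 fertilized Aph+, the oocyte and 1 cumulus array. A brighter Csf3r probe (812 against 612) was detected on 1 fertilized Aph+ and 1 cumulus array, and a brighter Prkcz probe (681 against 523) on the oocyte array. Second probes of St14 and Liph were detected on 4 of the 6 Aph- arrays (means 117 and 126), and that of Acer1 on 0 (106). Such dim probes cannot show absence from the other 7 arrays, where all of them were undetected. For Tmprss2, Eomes, Krt7, Dppa1, Slc6a12 and Slc6a13 no other probe was on the array.

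**Figure D3:**
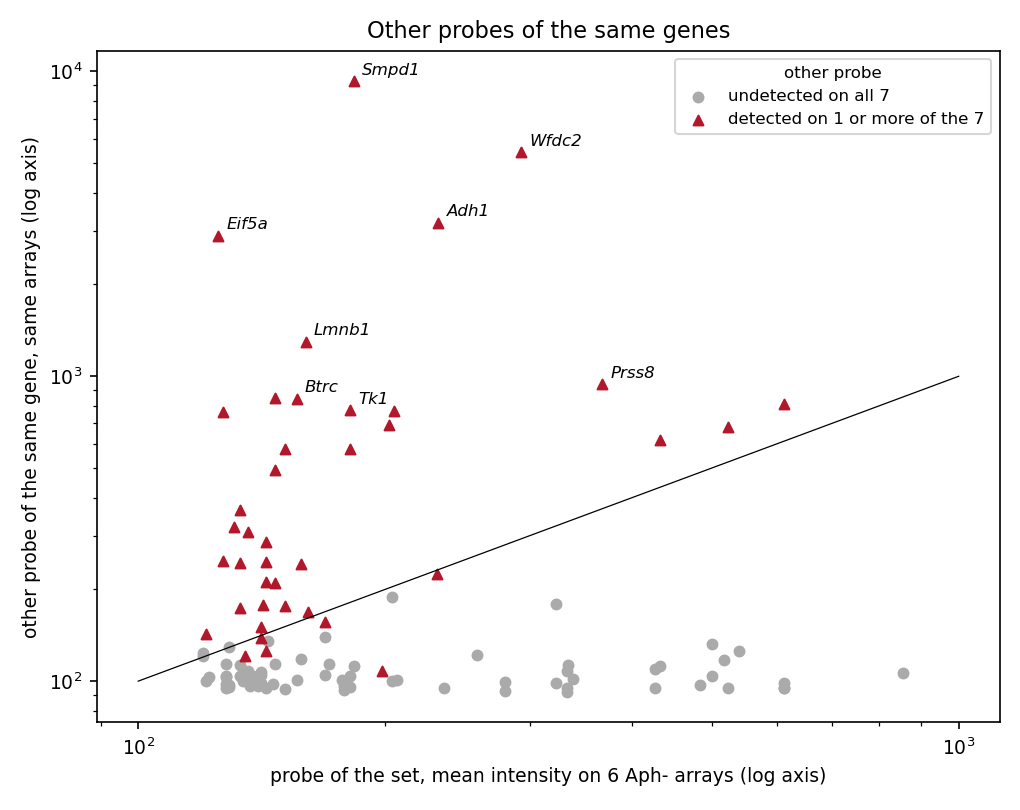
Mean intensity over the 6 Aph- arrays of each member probe (horizontal axis, log scale) and of other probes for the same gene (vertical axis, log scale), with the line of equality. Triangles mark other probes detected on 1 or more of the 7 arrays that lack the member, led by Smpd1 at 9280, and circles mark those undetected on all 7.

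The distance from the threshold varied among members. The nearest to it, Ppp1r14d, Cpne8 and Miip, reached a detection p of 0.010 on 1 of the 7 arrays. In all, 105 members had a p under 0.05 on 1 or more of the 7, and 80 (43.2%) on none. On the other side 126 members had a p of 0 on all 6 Aph- arrays, and 54 met both of the latter conditions. The dimmest member, Pfdn1, a prefoldin subunit, had a mean of 119. Dim members included genes that most cells use, such as the splicing factor Srsf3, the ribosomal protein gene Rpl14 and Eif5a. The 9 genes of RNA processing and protein synthesis had means of 125 to 161 and the 11 of cell cycle, DNA repair and chromosomes of 124 to 181, against 140 to 1490 for the 11 transcriptional regulators.

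The rule asked for no difference between the 2 kinds of Aph- embryo, which were compared next, but it did require detection on all 6 of their arrays. Probes that missed membership on 1 SCNT Aph- array alone numbered 6, 47 and 17 for replicates 1, 2 and 3. On the fertilized Aph- arrays it was 7, 3 and 5. Probes low in SCNT embryos were thus left out more often, and what this did to the counts by direction was not tested. The full set of probes tested did not have to meet this condition. Levels are log2 values after background correction and quantile normalization, so that a difference is set against the rest of the same array. In limma, with Benjamini-Hochberg adjustment over 12579 probes, 10 members differed at adjusted p under 0.05. There was 1 member lower in SCNT embryos, or 0.541% against 1.39% of all probes tested, and 9 were higher, or 4.86% against 0.898%. Of the other 6282 probes detected on all 6 arrays, 1.08% were lower and 1.35% higher. At an unadjusted p under 0.05 there were 61 members. A scaling of each array to its 75th percentile, in place of quantile normalization, called 20 members lower and 26 higher, among 1748 probes called in all.

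Dppa1, a developmental pluripotency associated gene, was the member that was lower. Its log2 level was 9.20, 9.34 and 9.42 in fertilized and 8.51, 8.33 and 8.27 in SCNT Aph- embryos. The difference was -0.95 (standard error 0.12, adjusted p = 0.0264 from limma, n = 3 and 3), or 1.93-fold lower. It was lower in 3 of 3 SCNT arrays.

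The 9 members that were higher came from several groups of function, and in each all 3 SCNT arrays lay above all 3 fertilized arrays. Atp2a3, a calcium pump of the endoplasmic reticulum, rose from 6.68, 6.71 and 7.24 to 9.42, 8.35 and 8.41, by 1.85 (standard error 0.33, adjusted p = 0.0483 from limma). Epas1 rose from 7.72, 7.33 and 7.24 to 8.66, 9.35 and 9.57, by 1.76 (standard error 0.27, adjusted p = 0.0350). By these probes both were clearly detected in both kinds of embryo. Slc6a12 was at 5.21, 5.44 and 5.41 in fertilized and at 6.53, 7.07 and 7.18 in SCNT embryos, a rise of 1.57 (standard error 0.19, adjusted p = 0.0259). Nppb, which encodes the natriuretic peptide BNP, rose by 1.55 (standard error 0.24, adjusted p = 0.0362). The membrane protein gene Tmem54 rose by 1.43 and Ptges, the synthase of prostaglandin E2, by 1.21, with standard errors of 0.19 and 0.17. For Acad12, of the acyl-CoA dehydrogenase family, the rise was 0.80. It was 0.79 for Vtcn1, the inhibitory B7 family ligand B7-H4, and 0.75 for Grk6, a kinase of G protein-coupled receptors, with adjusted p of 0.0483, 0.0326 and 0.0491. The last 3, Slc6a12, Nppb and Tmem54 had mean log2 levels of 5.24 to 5.71 in fertilized embryos, where the lowest detected level on an array was 4.75 to 4.81. Without background correction the differences were smaller, at 0.63 for Slc6a12, 0.63 for Nppb, 0.62 for Tmem54, 0.61 for Ptges and 1.19 for Atp2a3, and at 0.32, 0.26 and 0.25 for Acad12, Vtcn1 and Grk6. Of the 9 higher members 4 then passed the test, namely Epas1, Slc6a12, Tmem54 and Ptges. Some of the 9 had further probes that were not members. Those of Atp2a3 were detected on 0 and 1 of the 6 Aph- arrays (means 94.7 and 110), and those of Epas1 on 1 and 5 (104 and 132). That of Grk6 was detected on 0 (98.8), and that of Ptges on all 6 (225) and on 1 cumulus array. Differences by these further probes are not given here.

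**Figure D4:**
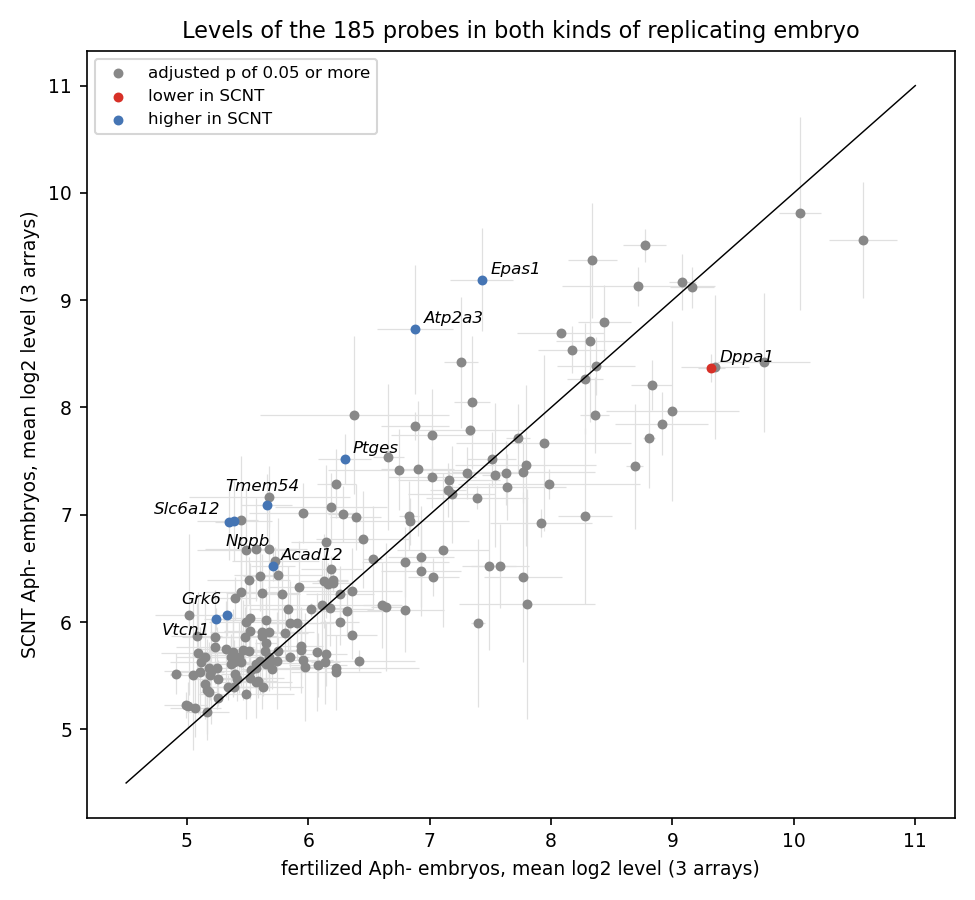
Mean log2 level of each of the 185 probes in fertilized (horizontal axis) and SCNT (vertical axis) Aph- embryos, 3 arrays each, with SD as grey bars and the line of equality. Dppa1 in red lies below the line at 9.32 and 8.37, and the 9 members in blue, led by Atp2a3 at 6.88 and 8.73, lie above it.

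Several differences about as large as that of Dppa1, or larger, did not pass the test after quantile normalization. Tmprss2 was at 10.87, 10.32 and 10.51 in fertilized and 10.17, 9.37 and 9.13 in SCNT embryos, a difference of -1.01 (standard error 0.30, adjusted p = 0.126 from limma). For BC053393 the difference was -1.33 (standard error 0.36, adjusted p = 0.105) and for Krt7 -1.28 (standard error 0.40, adjusted p = 0.143). For Tfap2a it was -1.35 (standard error 0.41, adjusted p = 0.132). In each of these, SCNT replicate 1 was nearer to the fertilized arrays than SCNT replicates 2 and 3. Eomes was at 9.55, 9.45 and 9.03 against 9.11, 8.22 and 7.81, so that its groups overlapped on the normalized scale. B3gnt5, an enzyme that starts lacto-series glycolipids, had the lowest difference of the set, -1.63, with a standard error of 0.56 and an adjusted p of 0.169. Under the 75th percentile scaling all 6 of these genes passed, with adjusted p from limma of 0.00586 for Tmprss2, 4.27e-04 for BC053393, 9.38e-04 for Krt7, 5.73e-04 for Tfap2a, 0.00693 for Eomes and 2.57e-04 for B3gnt5.

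**Figure D5:**
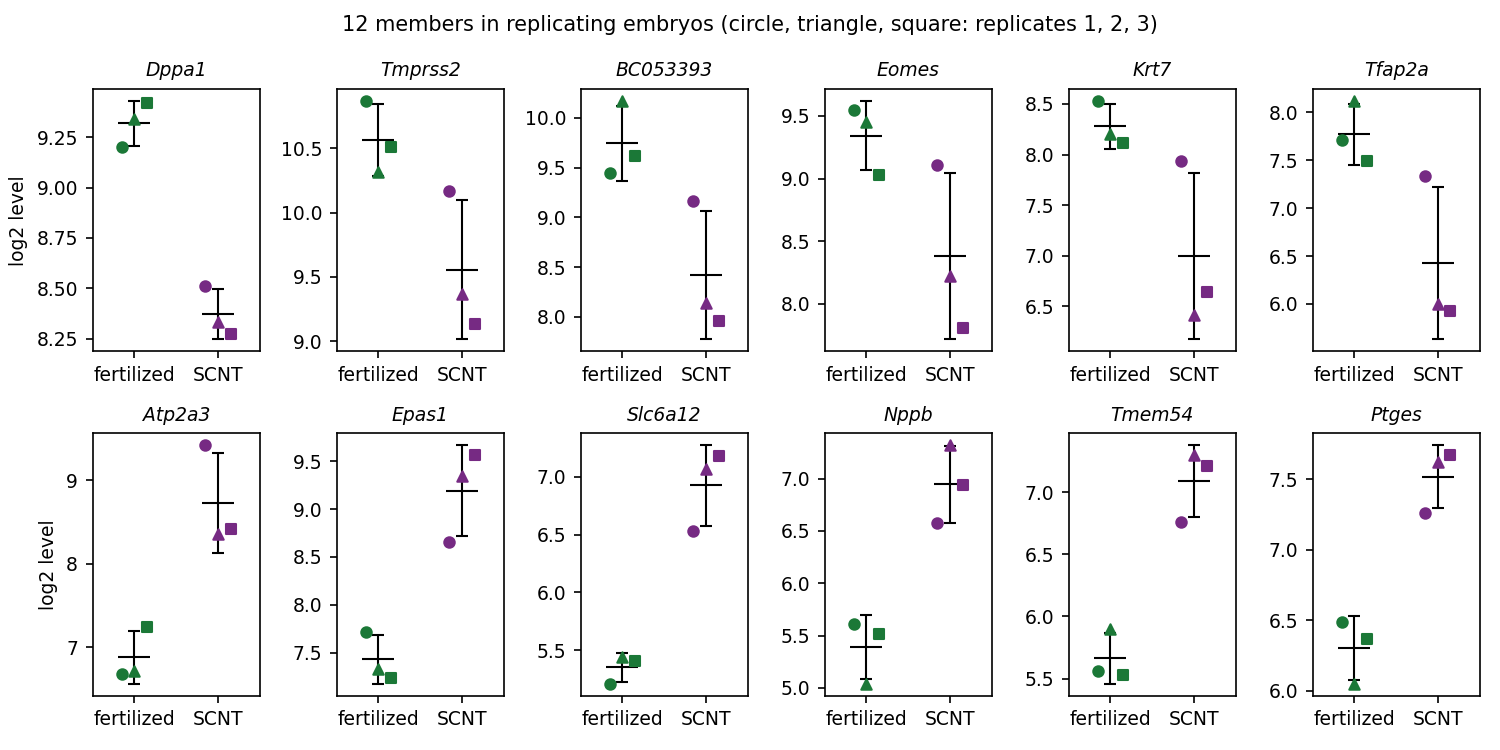
Log2 level (vertical axes, each on its own scale) of 12 members on the 3 fertilized and 3 SCNT Aph- arrays, with mean and SD as black lines and replicates 1, 2 and 3 as circle, triangle and square. The circle of SCNT embryos lies above the other SCNT arrays in Tmprss2, at 10.17 against 9.37 and 9.13, and in Krt7 and Tfap2a.

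Replicate 1 of the SCNT Aph- group, of the untimed label type, was nearer to the fertilized arrays than the other SCNT arrays were. Across the 185 probes its log2 levels correlated with the fertilized arrays at Pearson r of 0.854 to 0.879, against 0.723 to 0.794 for replicates 2 and 3 and 0.939 to 0.948 among the fertilized arrays. Its correlations with SCNT replicates 2 and 3 were 0.864 and 0.872, and these 2 correlated at 0.888. The same order appeared over all probes detected on the 6 arrays, where replicate 1 correlated with the fertilized arrays at 0.953 to 0.964 and replicates 2 and 3 at 0.900 to 0.939. These values are a description across probes, which share their arrays. It was also the brightest SCNT array, with a mean intensity of 313 against 184 and 229. Without it, limma called 11 members lower and 14 higher, among 774 probes called in all, against 288 with it. The lower ones were then B3gnt5 (-2.23, standard error 0.36), Tfap2a (-1.81), Krt7 (-1.76), BC053393 (-1.70), both Chst3 probes (-1.55 and -1.36), Eomes (-1.33), Tmprss2 (-1.31), Atp12a (-1.24), Dppa1 (-1.02) and P2rx3 (-0.73). Among the 14 were Krtdap (1.78), Kndc1 (1.33), Pramel6 (1.27) and Epas1 (2.03). Leaving out any other array of the 6 left 0 members higher and 0 or 1 lower.

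Over all 185 members the median difference was 0.16, with quartiles of -0.21 and 0.51, and 67 members (36.2%) had a negative difference. The median was -0.00 over all 12579 probes and 0.02 over other probes detected on all 6 arrays, of which 47.4% were negative. Under the 75th percentile scaling the median of all probes moved to 0.18 and that of the members was 0.13, so that the members then lay below all probes and not above them. For the other probes detected on all 6 arrays the median under this scaling is not given here. All 3 SCNT arrays were above all 3 fertilized arrays in 43 members (23.2%, against 17.1% of the other probes detected on all 6), and below in 18 (9.73%, against 13.5%). The direction went with brightness. Members with a mean intensity of 300 or more had a median of -0.23 (43 probes, other detected probes -0.02), and those under 150 had 0.24 (64 probes, others 0.25). For the bright members it was -0.43 under the 75th percentile scaling, -0.25 in the authors' log2 values and -0.14 without background correction. By function, the 11 transcriptional regulators had a median of -0.31 with 8 negative, and 1 of them, Epas1, passed the test. The 18 probes for channels, pumps and carriers had a median of 0.27 with 5 negative, and 2 passed, Atp2a3 and Slc6a12. The 14 probes of lipid, prostaglandin and sulphate metabolism had a median of -0.24 with 10 negative, and 2 were higher, Ptges and Acad12. Under the 75th percentile scaling these medians were -0.43, 0.40 and -0.36, but that of the 12 serine proteases and other secreted or surface enzymes turned from 0.05 to -0.18.

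For the lists, each gene was read by its brightest tested probe in this comparison. Read so, 1.45% of all 9787 genes tested were lower and 0.940% higher in SCNT embryos. Of 24 trophectoderm regulators tested, 1 was lower and 0 higher in SCNT embryos, and of 30 genes of the inner cell mass and pluripotency, 2 were lower and 1 higher. Of 29 keratins and junction genes, 0 were lower and 2 higher, and in the DNA replication list 2 of 41 were lower and 0 higher. Of 20 primitive endoderm genes 4 were lower, as were 3 of 19 genes of blastocoel transport and 2 of 28 of extracellular matrix and integrins, with 0 higher in each. Of 23 genes of cyclin D, growth control and p53, 0 were lower and 1 was higher. The other 11 lists had no call, and no list was tested as a whole. For the list members within the set, Cldn3 differed by 0.09 (standard error 0.26), Ocln by 0.00 (0.15), Gdf3 by -0.37 (0.32), Zfp42 by -0.78 (0.23) and Tk1 by -0.22 (0.20). Apoa1, an apolipoprotein of visceral endoderm, differed by 1.55 but with a standard error of 0.50 (adjusted p = 0.154 from limma). None of these passed.

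Some members were neighbours in the genome. In the RefSeq gene order of GRCm38.p6, 7 pairs of member genes were adjacent protein-coding genes: Csrp1 and Phlda3, BC053393 and Dppa1, Nme4 and Pgap6, Egfl7 and Agpat2, Tmem125 and Cfap57, Slc6a13 and Slc6a12, and Kndc1 and Utf1. Of 281 genes that lie next to a member and have a probe, 14 (4.98%) were members, against 178 of 16495 protein-coding genes on the array (1.08%). No test of this share was made. BC053393, Dppa1 and Havcr1 lie in 1 run that is broken by Timd2, a relative of Havcr1. Timd2 was at 1844 to 4521 in Aph- embryos and also at 484, 834 and 497 in fertilized Aph+ embryos, but at 74.5 on the SCNT Aph+ array. The difference between SCNT and fertilized embryos was -1.33 for BC053393, -0.95 for Dppa1, 1.20 for Timd2 (standard error 0.32, adjusted p = 0.0989 from limma) and 0.02 for Havcr1 (standard error 0.21). In the pair of carriers it was 1.57 for Slc6a12 and 0.09 for Slc6a13 (standard error 0.16).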

How the data were processed

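RNA from pools was hybridized to Illumina mouse BeadChips. Per the file headers and the methods, the authors summarised bead intensities with BeadStudio 3.2. The deposited intensity is linear, without background subtraction or normalization, and beside it stands the deposited detection p-value, which moves in 798 steps. A second deposited table holds the authors' log2 values, with a median of 1.35 on each array. The intensity column of the SCNT Aph+ array has a name that equals no sample title, and was assigned from that name to the only SCNT Aph+ sample. It ranked the probes as the log2 column of that sample does (rank correlation 1.0000). What lumi and RMA, which the submitters' processing notes list, were used for is not stated, and a genome build is not given in the sources used here.

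The function neqc (R 4.3.3, limma 3.58.1, offset 16) corrected the background of all 13 arrays, made their distributions equal and took log2. It infers the negative controls from detection p. Probes with a symbol (23978, from the platform annotation with symbols updated by gene identifier, 1719 having none) were tested where any array had a detection p under 0.01, which left 12579. The 6 Aph- arrays were fitted with limma and eBayes (4 residual degrees of freedom), and p-values were adjusted by Benjamini-Hochberg. In 7 arrays the members are undetected, so folds against those arrays are lower bounds, from the group mean to the mean, per array, of the lowest detected level or the probe's own level where higher. Precision is limited by how few arrays a group has.

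The members, the 19 lists, the motifs and the rules were chosen with earlier results of these data known. The roles used to order the members were assigned after the members were seen. Named genes were the 20 brightest members, members past the test, up to 4 members and 4 other detected genes per list, the 3 members nearest to detection and genes with 2 member probes. Any other gene named was chosen after its values were seen. The label types did not pair the arrays (correlations of same-type deviations -0.085, -0.240 and 0.143), so no block was used. Tested on simulated data of 12579 probes, the fit recovered 56 of 100 changes of 2-fold and 81 of 100 of 4-fold, with 8 false calls. The simulated noise was independent between probes and arrays, with no effect shared across an array and no normalization step. These counts therefore do not cover differences between whole arrays, such as that of SCNT Aph- replicate 1. The alternatives were the authors' log2 values, other background correction, scaling, detection filters, models and thresholds, and each array left out.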

Additional observations from a re-analysis of the deposited data

How the results depend on the processing

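Of the 10 members called between SCNT and fertilized Aph- embryos, all 10 kept their direction under every alternative except the use of 1 probe per gene, where 9 were tested and kept it. The calls were less stable. Against 1 lower and 9 higher, the count of lower members was 0 in the authors' log2 values and 0 in 1 model with all 6 groups, 20 under the 75th percentile scaling, 9 with probes detected on at least 3 of the 6 arrays and 7 with trend and robust eBayes. The count of higher members was 26 under the scaling, 3 in the model with all groups, 25 with the filter on 3 arrays and 2 without a filter. With the label type as a replicate block it was 0 lower and 0 higher, in a fit that called 0 of all 12579 probes. Leaving out 1 array gave 0 to 11 lower and 0 to 14 higher, the highest counts without SCNT Aph- replicate 1. The median difference of the members, 0.157, ranged from 0.12 to 0.184 with 1 array left out and was 0.056 without background correction, and the cause was not tested. The number of members was 133 at a detection threshold of 0.05 and 126 with p under 0.001 on the Aph- arrays. It was 185 to 393 with 1 array left out of the rule, the 393 without cumulus replicate 2. Members near background have differences whose size depends on the background correction, and 3 arrays a group limit the precision.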

Other observations

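Probes that missed membership by 1 array did so most often on cumulus replicate 2 (208 probes), SCNT Aph- replicate 2 (47) and the oocyte array (37). On fertilized Aph+ replicates 1, 2 and 3 it was 17, 29 and 14. Bright ones included Cmtm7 (mean 848), which failed on cumulus replicate 2, and Slc1a1 (778), which failed on the oocyte array. Some genes of the early lineages were also just outside the set, and those below were picked after their values were seen. Wnt3a, a WNT ligand, had intensities of 2393, 2513 and 2964 in fertilized and 2078, 611 and 895 in SCNT Aph- embryos and missed membership by 1 array, fertilized Aph+ replicate 2, at 92.2. Nanog was at 1471, 1303 and 1637 and at 1821, 851 and 1136, and failed on the same array at 155. Gata3 was at 739, 531 and 856 and at 613, 236 and 364, and failed on fertilized Aph+ replicate 3 at 89.8. Gpx2, a glutathione peroxidase of epithelia, failed on fertilized Aph+ replicate 1 at 113. Tbx3 was undetected in Aph+ embryos and cumulus cells and failed on the oocyte array, at 262. Both probes for Pou5f1 were detected on all 6 Aph- arrays, with means of 127 and 196, and fell outside the set because the former was also detected on a fertilized Aph+ array and the latter on the oocyte array. In limma, Nanog was higher in SCNT than in fertilized Aph- embryos by 0.65 on the normalized log2 scale (standard error 0.11, adjusted p = 0.0455), in 3 of 3 arrays. Before normalization the intensities overlapped, and SCNT replicates 2 and 3 lay below every fertilized array, so the direction depends on the normalization. Other settings are not given for Nanog. By PCR on single embryos without Aph, the paper detected Nanog mRNA in a smaller share of SCNT than of fertilized embryos, which is a frequency and not a level.

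There were 401 probes detected on all 6 Aph- arrays and neither in oocytes nor in cumulus cells. Of these, 210 were detected on 1 or more Aph+ arrays, 206 of them after fertilization and 22 after SCNT, and 91 were detected on all 3 fertilized Aph+ arrays.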
